A study of Mus musculus with 3 samples.

Results

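The genes described here encode 36 growth factors, cytokines and related proteins that endothelial cells can secrete or shed toward other cells of the heart. They were taken by gene symbol from the deposited table of 17583 genes, and all 36 symbols are listed in it. Ribosome-associated RNA was purified from hearts of 3 EC-RiboTag mice, all of the genotype Cdh5-CreERT2;Rpl22tm1.1Psam, in which a tamoxifen-inducible Cre driven by the Cdh5 promoter of endothelial cells switches the ribosomal protein RPL22 to a form carrying a hemagglutinin tag. Per the sample labels the hearts were taken 7 days after myocardial infarction (MI) induced by coronary ligation. The methods text on the RiboTag purification mentions no infarction, and neither does the supplementary legend on RiboTag RNA sequencing (n = 3). Another supplementary legend of the study describes such hearts after MI for a separate PCR experiment. The methods give ages for the mice of the study in general, of both sexes, and not for these 3 animals. Sex-linked genes, given below, had the values of a male in mouse 1 and of females in the other mice. The 3 libraries are biological replicates of a single condition, with no input or control library among them. Each value is therefore a level in the precipitated RNA, and no enrichment can be given from these libraries. The study compared precipitate with input by PCR for marker genes of several cell types, and those PCR values are not used here. The hearts were dissected, and each title contains Rz, an abbreviation left unexplained in the labels. The study abbreviates the remote zone of the infarcted heart as RZ, and whether the titles mean this zone is not stated, so the tissue behind every value may be the whole heart or a zone of it. Differences between conditions could not be tested. In the comparisons of genes, p-values reflect how far a ratio keeps its sign over these 3 libraries and do not measure its spread.

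The deposited values are read counts that the authors normalized with DESeq2 and that are rounded to whole numbers, called normalized counts here. From the pattern of values that occur too rarely or too often after rounding, 1 read was estimated to be worth 0.961 to 1.06 normalized counts, which puts the libraries between 6753000 and 7564000 reads on genes. The 10 endothelial marker genes, which include Cdh5, Pecam1, Kdr and also Egfl7, itself a gene described here, were all above 10 in every mouse. Their sum ranged from 19949 to 20605. The cardiomyocyte list was also present, with 10 of 10 genes above 10 in every mouse and a sum of 20679 to 24237, or 13300 to 14047 without the titin gene Ttn. The fibroblast list (10 of 10 genes, sum 3254 to 4532), the mural list (10 of 10, 2760 to 3316), the lymphatic endothelial list (6 of 6, 3257 to 4570), the endocardial list (4 of 4, 2901 to 5605) and the leukocyte list (7 of 10, 661 to 937) were lower. Sums depend on the number and length of the genes in a list. The median normalized count per kb of canonical transcript was 688.5 for the endothelial and 565.2 for the cardiomyocyte list. For the other lists it lay between 28.5 (leukocyte) and 192.9 (endocardial). Of the leukocyte markers, the T cell gene Cd3e is not listed and the B cell gene Cd79a was at 0 in mouse 3. In such a bulk preparation, more RNA per endothelial cell and more RNA carried over from another cell type cannot be told apart for a single gene.

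Angiocrine factors are signals that the endothelium releases to its neighbours. Endothelial platelet-derived growth factor recruits pericytes, neuregulin acts on cardiomyocytes, colony-stimulating factor sustains macrophages, and BMP ligands act back on the endothelium itself. Several of them are made as membrane-anchored precursors, such as stem cell factor, neuregulin and HB-EGF, and are released by proteases, so that the level of ribosome-bound RNA is a measure of the message and not of the released ligand.

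The 36 ligand genes spanned a wide range, from rank 24 (Kitl) to rank 14961 (Hgf) of the 17583 genes by mean. At least 10 normalized counts in every mouse were found for 33 of the 36 genes (91.7%), compared with 78.7% of all genes in the table. The stricter limit of 50 in every mouse was met by 27 genes (75.0%, against 66.0% of all genes). A mean of at least 200 was reached by 21 of the 36 (58.3%), close to the 53.2% of all genes. To compare genes with each other, normalized counts were divided by the length of the canonical transcript in kb. On this scale the median of the 36 genes was 75.9 per kb and that of the 17475 genes with a known length was 73.0 per kb. The upper end was better filled than the median shows: 8 of the 36 genes (22.2%) lay in the top 10% of all genes (background 10.0%). The genes were chosen with earlier results of these data known, so such shares only describe this list. These 8 were, in falling order, Egfl7, Gas6, Pdgfb, Kitl, Igfbp3, Bmp6, Pros1 and Fstl1. The bound of this top 10% was 333.6 per kb, with Fstl1 just inside at 373.6 per kb and Tnfsf10 just outside at 313.9 per kb. In the order of all 36 genes, 13 of the 35 steps from a gene to the next were greater than the larger SD of the pair. Most of these lay above Fgf2 (80.8 per kb). From Fgf2 down to Il34 at 6.83 per kb no step did so, and the order of adjacent genes in this range is not resolved. Genes farther apart in it can still differ beyond their SDs, such as Fgf1 at 70.1 ± 8.03 and Metrnl at 32.8 ± 1.73 per kb. Il34, Lif and Hgf at the end were again set apart.

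**Figure D1:**
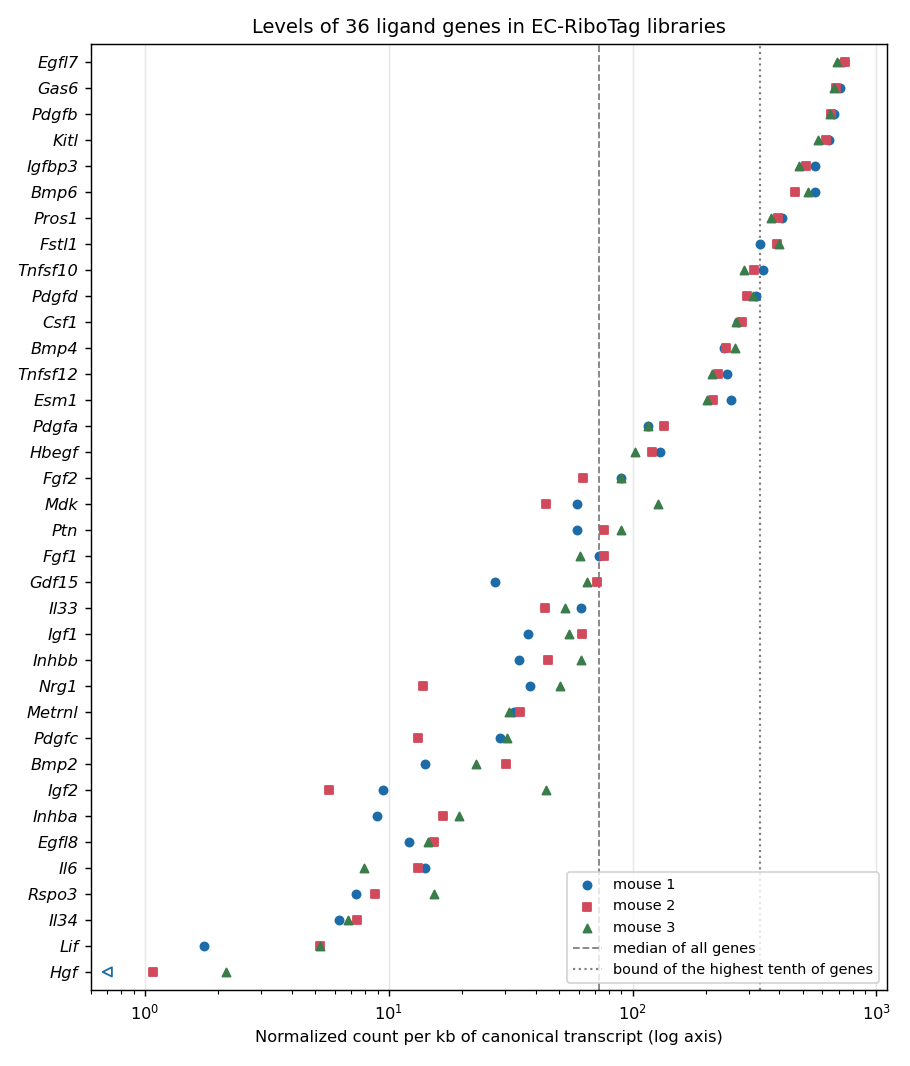
Normalized count per kb of canonical transcript (log axis) of the 36 ligand genes, ordered by mean, with 1 point per mouse, the median of all genes at 73.0 per kb as a dashed line and the bound of the top 10% at 333.6 per kb as a dotted line. The open triangle at the left edge marks Hgf in mouse 1, which is listed at 0. Points of the upper genes lie close together, whereas those of Nrg1, Igf2 and Gdf15 spread widely.

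The promoter DNA of Egfl7, Gas6 and Kitl is printed as an example of genes with a high level per kb, and not every gene at the upper end is shown. The windows are the 250 bases before the canonical start site in the GENCODE annotation of GRCm39, read 5′ to 3′ on the strand of the gene. The windows are chr2:26473503-26473752 on the plus strand for Egfl7, chr8:13544825-13545074 on the minus strand for Gas6 and chr10:99851242-99851491 on the plus strand for Kitl. The windows rest on a newer annotation than the gene spans given elsewhere in the text, which are those of the deposited table, so that the canonical start of Gas6 lies outside its listed span. Each window was searched on both strands for CCGGAA, a core of ETS family sites, for GGGCGG, a core of SP1 sites, and for TATAAA, the TATA box, and a match would be in capitals.
Egfl7: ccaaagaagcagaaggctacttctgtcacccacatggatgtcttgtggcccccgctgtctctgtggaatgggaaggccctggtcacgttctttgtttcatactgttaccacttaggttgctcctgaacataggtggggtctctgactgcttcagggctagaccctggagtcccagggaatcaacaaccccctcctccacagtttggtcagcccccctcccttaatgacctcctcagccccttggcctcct
Gas6: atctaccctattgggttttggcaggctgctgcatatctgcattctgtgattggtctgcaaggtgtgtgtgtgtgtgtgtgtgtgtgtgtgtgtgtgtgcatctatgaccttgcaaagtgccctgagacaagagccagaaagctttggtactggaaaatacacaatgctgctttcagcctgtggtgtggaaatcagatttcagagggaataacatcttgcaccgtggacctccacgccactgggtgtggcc
Kitl: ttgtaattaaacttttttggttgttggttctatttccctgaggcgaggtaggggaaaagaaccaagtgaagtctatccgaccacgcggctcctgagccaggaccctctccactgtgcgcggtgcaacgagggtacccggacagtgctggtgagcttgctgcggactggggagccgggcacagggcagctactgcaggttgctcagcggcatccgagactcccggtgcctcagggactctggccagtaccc
None of these 3 windows holds a match to the 3 motifs. Over all 36 ligand genes, CCGGAA was present in 3 windows, GGGCGG in 14 and TATAAA in 2. Among the windows of all 17475 genes, the shares were 15.5%, 43.9% and 8.33%. The ligand windows held few CG pairs, with a median of 4 against 11 over all genes. The window of Kitl was above both medians with 13 CG pairs, and those of Gas6 and Egfl7 had 2 each. Egfl7 has 103 annotated transcripts with several start sites, and the start used in these hearts was not measured.

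Kitl and Metrnl encode ligands of the receptor tyrosine kinase KIT. Stem cell factor, the product of Kitl, is the canonical KIT ligand, and meteorin-like is a secreted protein that can act as a KIT agonist. Kitl (ENSMUSG00000019966, chromosome 10 of GRCm39 from 99851492 to 99936278, plus strand) reached 3597, 3500 and 3246 normalized counts (mice 1 to 3, the order used throughout). Its mean was 3448 ± 181 (SD, n = 3), the highest of the 36 ligand genes and rank 24 of all 17583 genes. Per kb, Kitl had 610.4 ± 32.1 and rank 261 of 17475. Metrnl (chromosome 11 from 121592370 to 121607132, plus strand) had 199, 210 and 189, a mean of 199 ± 10.5. Both genes were similar in the 3 mice, with a coefficient of variation (CV) of 5.26% for Kitl and 5.27% for Metrnl. For Metrnl counting alone gives a CV of 7.08%, so no spread beyond counting was detectable. Kitl exceeded Metrnl in every mouse, by a log2 ratio per kb of 4.22 ± 0.06 (SD, n = 3), or 18.6-fold. The receptor gene Kit had normalized counts of 688, 734 and 724, and Kitl exceeded it by a log2 ratio per kb of 2.17 ± 0.11, or 4.49-fold. In the exact sign-flip permutation test used for all ratios, a pair with the same sign in all 3 mice has a two-sided p = 0.25, which is the smallest that 3 mice allow, so no ratio can pass 0.05. The ratio kept its sign in every mouse for 16 of 18 pairs of ligands (adjusted p = 0.281 after Benjamini-Hochberg in the exact test) and for 20 of 21 pairs of ligand and receptor (adjusted p = 0.263). Genes of clearly different level keep the same sign whatever they encode, and no share over other pairs of genes was computed. These counts therefore show no trait of the ligands.

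The PDGF family, which acts on pericytes and fibroblasts, was led by Pdgfb. Pdgfb (ENSMUSG00000000489, chromosome 15 from 79880075 to 79899178, minus strand) had normalized counts of 2086, 2026 and 2017, and its CV of 1.84% was the smallest of the 36 genes and within the 2.21% that counting alone gives. Pdgfd, whose product binds the same receptor, followed with 1258, 1150 and 1224. Pdgfa, a ligand of PDGF receptor alpha, had 313, 364 and 315, and Pdgfc, which needs proteolytic activation like Pdgfd, had 102, 47 and 109. Per kb, Pdgfb exceeded Pdgfd 2.12-fold (log2 ratio 1.08 ± 0.05, SD, n = 3) and Pdgfa 5.40-fold (2.43 ± 0.14). Pdgfd exceeded Pdgfc 13.7-fold, with a wide log2 ratio of 3.78 ± 0.61 that follows the low value of Pdgfc in mouse 2. Pdgfb exceeded Pdgfrb, the receptor gene of pericytes, by a log2 ratio per kb of 3.84 ± 0.23, and Pdgfa exceeded Pdgfra, the receptor gene of fibroblasts, by 1.88 ± 0.28. Pdgfrb (212, 254 and 280) and Pdgfra (196, 203 and 258) also belong to the mural and fibroblast marker lists, and the part of RNA from those cells in the ratios was not tested.

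Of the EGF family, Hbegf and Nrg1 were measured. Hbegf, which encodes heparin-binding EGF-like growth factor, had 308, 286 and 243 normalized counts. Nrg1 (ENSMUSG00000062991, chromosome 8 from 32304579 to 33374825, minus strand), the gene of the cardiomyocyte growth factor neuregulin-1, had 261, 95 and 348 and thus the largest CV of all ligand genes with a mean of at least 200 (54.8%). Hbegf exceeded Nrg1 per kb in every mouse, by log2 ratios between 1.01 in mouse 3 and 3.12 in mouse 2. This order depends on length, since without division by length the mean log2 ratio was 0.44 and Nrg1 was the higher in mouse 3. The EGF receptor gene Egfr was low with 17, 42 and 23 normalized counts, as was the neuregulin receptor gene Erbb4 with 35, 41 and 53. The co-receptor gene Erbb2 was higher, with 534, 530 and 605. Per kb, Hbegf exceeded Egfr by a log2 ratio of 5.55 ± 0.71 and Nrg1 exceeded Erbb4 by 3.13 ± 0.93 (SD, n = 3).

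Of the IGF axis genes among the 36, the binding protein gene Igfbp3 had the highest normalized counts. Igfbp3, whose product carries IGFs and limits their access to receptors, had 1512, 1388 and 1305 normalized counts. Igf1 had 263, 437 and 387, with the lowest value in mouse 1 and a CV of 24.7%. Igfbp3 exceeded Igf1 per kb by a log2 ratio of 3.37 ± 0.47, or 10.3-fold. The receptor genes had normalized counts of 915, 860 and 943 for Igf1r, of 1046, 1240 and 1034 for Insr and of 1172, 1347 and 1471 for Igf2r. Igf1 was lower than Igf1r per kb in every mouse (log2 ratio -0.54 ± 0.42).

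Igf2 (ENSMUSG00000048583, chromosome 7 from 142204503 to 142220553, minus strand) encodes a fetal growth factor and is imprinted. It had 35, 21 and 164 normalized counts, with mouse 3 far above the others and a CV of 107%, the largest of the 36 genes. Its count is limited by an overlapping gene, as is that of Tnfsf12. Of the 3708 bases of its canonical transcript, 3599 are also exonic in Gm49394, a longer gene on the same strand that is listed in the table with 0, 0 and 4. Reads that overlap several genes were left out by the authors, and only 109 bases of the canonical transcript, or 2563 of the 6162 bases of all its exons, lie outside Gm49394. With levels taken per unshared base, an alternative chosen after seeing the data, the log2 ratio of Igf1 to Igf2 changed from 1.91 to -3.18, and that of Igf2 to Igf2r from -3.47 to 1.61. The level of Igf2 relative to other genes is therefore not determined by these values. The difference between mice does not depend on the length. The antisense gene Igf2os had 17, 19 and 65 normalized counts and the neighbouring imprinted gene H19 had 519, 592 and 1041, so both were also highest in mouse 3. These genes were chosen after the values of Igf2 had been seen.

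Fgf1 and Fgf2, which encode fibroblast growth factors without a signal peptide, were both present in every mouse. Fgf1 had 309, 324 and 259 normalized counts and Fgf2 had 565, 393 and 565. Their log2 ratio per kb changed sign between mice (-0.19 ± 0.43, exact permutation test, two-sided p = 0.5). Without division by length it was -0.76 and by exonic length -1.07, with Fgf2 the higher in every mouse, so the order of the pair depends on the length used. The receptor gene Fgfr1, with 930, 1106 and 1069 normalized counts, exceeded Fgf2 2.11-fold per kb of canonical transcript, but by exonic length the log2 ratio of Fgf2 to Fgfr1 was -0.14 and its sign differed between mice. Hgf, which encodes hepatocyte growth factor, a product mainly of mesenchymal cells, was the lowest of the 36 genes with 0, 7 and 14. The 0 in mouse 1 allows up to 2.93 normalized counts, the worth of 3 reads, for counting error only. No ratio of Hgf to its receptor gene Met was taken. Met itself had 29, 78 and 84.

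Among the TGF-beta superfamily ligands that belong to the 36 genes, Bmp6 was highest. The TGF-beta genes themselves are not among the 36. Bmp6, an activator of SMAD signalling in endothelium and a regulator of iron balance in the liver, had 2017, 1666 and 1882 normalized counts. Bmp4 had 661, 671 and 737, and Bmp2 had 50, 108 and 81. The order was the same in each mouse, Bmp6 exceeding Bmp4 2.08-fold per kb (log2 ratio 1.06 ± 0.16) and Bmp4 exceeding Bmp2 11.6-fold (3.54 ± 0.54). The BMP receptor genes differed in level. Acvrl1, the gene of ALK1, was high with 1911, 1793 and 1727, as was Bmpr2 with 2501, 2122 and 2649. Acvr1 had 699, 631 and 745, Bmpr1a had 298, 236 and 441, and Acvr2b had 107, 103 and 125. Per kb, Bmp6 exceeded Bmpr2 2.75-fold and Bmp4 exceeded Bmpr1a 4.77-fold. The first of these depends on length, since without division by length the log2 ratio of Bmp6 to Bmpr2 was -0.38.

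The activin genes and Gdf15 lay in the lower part. Inhbb had 147, 193 and 264 normalized counts (CV 29.3%) and Inhba had 54, 100 and 117 (CV 36.1%). Inhbb exceeded Inhba 3.19-fold per kb in the mean, with the same sign in each mouse. The paired receptor gene Acvr2a had 825, 689 and 790, and Inhba was 8.85-fold below it per kb. Gdf15, a stress-induced factor whose receptor gene Gfral is not listed in the table, had 52, 137 and 125 (CV 44.0%). Fstl1, which encodes a secreted follistatin-like glycoprotein, was high with 1305, 1528 and 1560. Rspo3, an endothelial potentiator of Wnt signalling, had 31, 37 and 65 and was 5.08-fold below its receptor gene Lgr4 per kb (log2 ratio -2.34 ± 0.58).

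Both ligands of the macrophage receptor CSF1R are members, and they differed widely. Csf1 had 1139, 1183 and 1114 normalized counts, with a CV of 3.05% against 2.95% from counting alone. Il34 had 11, 13 and 12. Csf1 exceeded Il34 40.1-fold per kb (log2 ratio 5.32 ± 0.10, SD, n = 3). The receptor gene Csf1r, a leukocyte marker, had 104, 143 and 170, and Csf1 exceeded it 12.1-fold per kb.

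Cytokines of the interleukin group were low. Il33, an alarmin stored in the nucleus of endothelial cells, had 208, 148 and 178 normalized counts, Il6 had 16, 15 and 9, and Lif had 7, 21 and 21. Lif and Il6 fell below 10 in 1 mouse each, so with Hgf they are the 3 members without 10 normalized counts in every mouse. Il33 exceeded Il6 4.60-fold per kb. At these counts the ratio of Lif to Il6 is not resolved, since the log2 ratio was -1.65 ± 1.24 per kb and 0.17 without division by length. Of the receptor genes of the gp130 family, Il6st and Lifr were high by comparison. Il6st, the gene of gp130, had 2682, 2378 and 3048, and Lifr had 1525, 1271 and 1464. The IL-6 receptor gene Il6ra was lower than both, with 174, 145 and 192. Per kb, Il6 was 27.4-fold below Il6st and Lif 39.4-fold below Lifr. For Il33 the order was the opposite, its receptor gene Il1rl1 having 15, 17 and 12, and Il33 exceeded it by a log2 ratio per kb of 4.25 ± 0.42.

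Gas6 and Pros1 encode the vitamin K-dependent ligands of the TAM receptors TYRO3, AXL and MERTK, and protein S is also an anticoagulant. Gas6 (ENSMUSG00000031451, chromosome 8 from 13515374 to 13544490, minus strand) had 2052, 1977 and 1934 normalized counts, and Pros1 had 1450, 1396 and 1305. Their CVs were 3.00% and 5.30%, and Gas6 exceeded Pros1 1.76-fold per kb with little spread (log2 ratio 0.81 ± 0.04). Of the receptor genes, Mertk had 657, 559 and 627, Axl 439, 428 and 497, and Tyro3 101, 118 and 140. Gas6 exceeded Axl 7.05-fold and Pros1 exceeded Tyro3 13.7-fold per kb.

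Of the TNF superfamily, Tnfsf10, which encodes the death ligand TRAIL, had 1703, 1570 and 1429 normalized counts, and Tnfsf12, which encodes TWEAK, had 413, 379 and 357. Per kb, Tnfsf10 exceeded Tnfsf12 by a small log2 ratio of 0.47 ± 0.03. This ratio rests on the length assigned to Tnfsf12, because 977 of its 1688 canonical bases are shared with the read-through gene Tnfsfm13, which is listed with 76, 47 and 57. Per unshared base the log2 ratio was -0.78. Tnfsf10 exceeded its receptor gene Tnfrsf10b 2.28-fold per kb, and the order of Tnfsf12 and Tnfrsf12a was not resolved (log2 ratio -0.47 ± 0.44, the sign differing between mice, exact permutation test, two-sided p = 0.5). Tnfrsf12a, the gene of the TWEAK receptor Fn14, had 240, 380 and 347.

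Ptn and Mdk encode pleiotrophin and midkine, related heparin-binding growth factors. Ptn had 147, 191 and 224 normalized counts and Mdk had 47, 35 and 101. Per kb the sign of their ratio differed between mice (log2 ratio 0.10 ± 0.66, exact permutation test, two-sided p = 1). Without division by length Ptn was the higher in every mouse, with a mean log2 ratio of 1.75. The receptor gene Ptprz1 had 1, 4 and 8, at or near the limit of counting, and the receptor gene Alk is not listed.

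Among secreted proteins named for endothelium, Egfl7 (ENSMUSG00000026921, chromosome 2 from 26470026 to 26483132, plus strand) had 1062, 1084 and 1002 normalized counts and the highest level per kb of the 36 genes, 719.2 ± 29.1 (SD, n = 3). Its first place depends on the length, since per kb of all annotated exons it had 131.1 and rank 3021 instead of rank 113. Its paralog Egfl8 had 15, 19 and 18, 51.6-fold lower per kb. Esm1, the gene of endocan and a marker of endothelial tip cells, had 576, 486 and 457, with a CV of 12.3%.

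Over the fixed list of 40 receptor genes for these ligands, 36 are listed in the table, and 34 of these had at least 10 normalized counts in every mouse (94.4%, against 78.7% of all genes). Bmpr1b, Fgfr4, Gfral and Alk are not listed, and Lgr5 and Ptprz1 were below 10. The median level of the 36 listed receptor genes was 63.1 per kb, against 75.9 per kb for the ligands. Among the 21 pairs with a ratio, Igf1, Igf2, Rspo3, Lif, Il6, Fgf2, Inhba and Tnfsf12 were below their paired receptor in the mean per kb, and the ligand was above it in the other pairs. Of these directions, those of Igf2 (1.61 per unshared base), Tnfsf12 (0.34 by exonic length, 0.27 without length and 0.78 per unshared base) and Bmp6 (-0.38 without length) turned under another length.

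**Figure D2:**
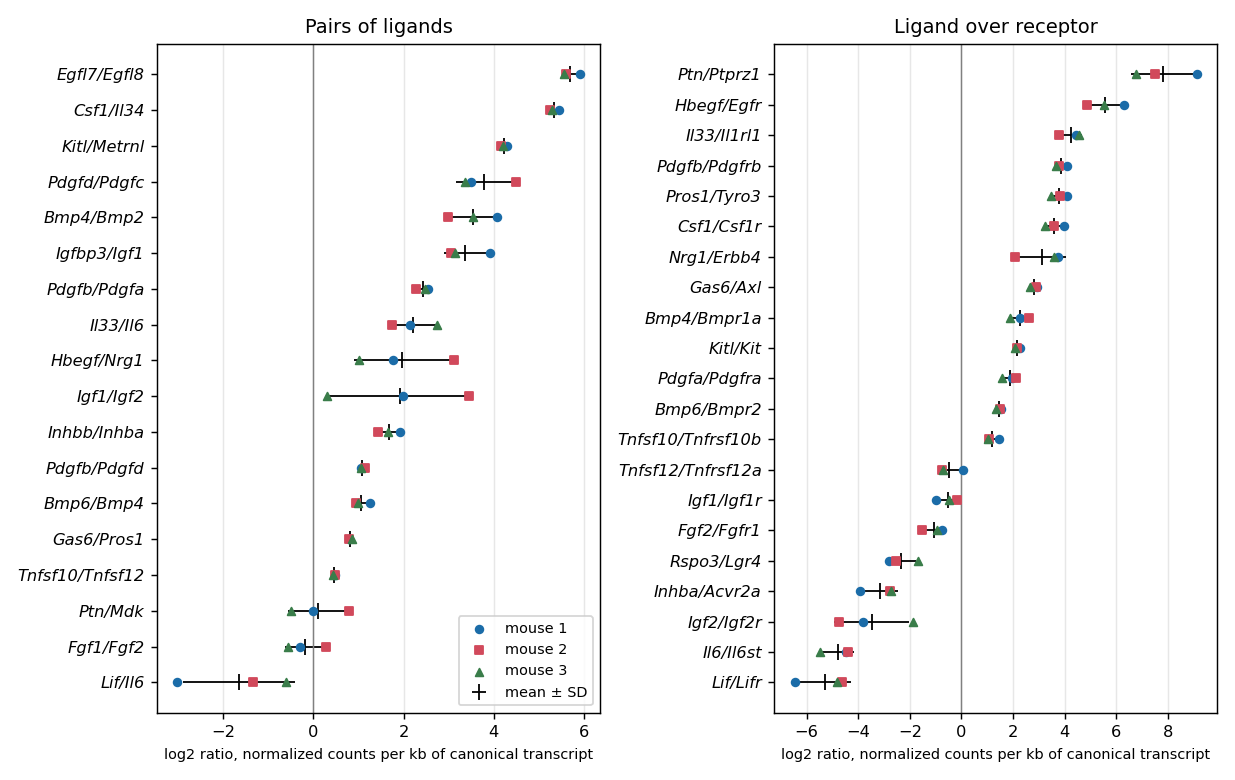
Log2 ratios of normalized counts per kb of canonical transcript for 18 pairs of ligands (left) and 21 pairs of ligand and receptor (right), with 1 point per mouse and the mean ± SD in black. Kitl/Metrnl lies at 4.22 and Kitl/Kit at 2.17 with little spread, whereas Igf1/Igf2, Hbegf/Nrg1 and Lif/Il6 spread over more than 2 log2 units.

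The ligand genes differed in how much they varied between mice. A CV over 20% was found for 3 of the 21 ligand genes whose mean reached 200 (14.3%), compared with 8.00% of all genes at this level. These 3 were Nrg1, Inhbb and Igf1, with Fgf2 just below at 19.6%. The median CV of the 21 genes was 8.74%, against 7.37% for all genes at this level. With any mean, 14 of the 36 genes had a CV over 20% (38.9%, against 35.9% of all genes), a share close to the background. Leaving out Hgf, whose mean is under 10, 13 variable ligand genes remained. The highest value was in mouse 3 for 8 of these 13, in mouse 2 for 4 and in mouse 1 for 1, ties being given to the mouse with the lower number, as for Lif with 21 in mice 2 and 3. The shares among the 3492 variable genes of the whole table were 40.0% for mouse 3, 31.8% for mouse 2 and 28.1% for mouse 1. The lowest value was in mouse 1 for 8, in mouse 2 for 4 and in mouse 3 for 1, where the shares of all variable genes were 50.5%, 33.4% and 16.2%. With only 13 genes, no difference from these shares was tested.

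**Figure D3:**
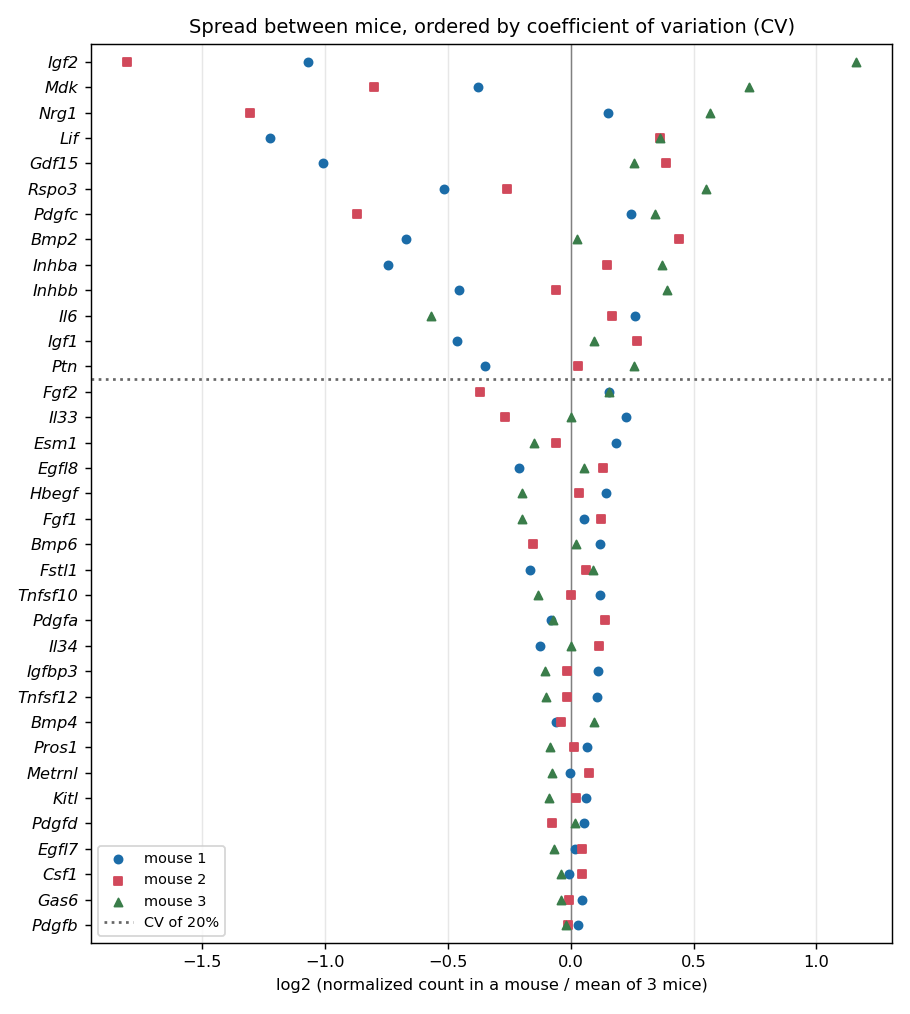
Log2 of the normalized count in a mouse over the mean of the 3 mice, for the 35 ligand genes with a mean of at least 10, ordered by CV with a dotted line at 20%. Genes from Pdgfb to Fgf2 lie nearer to 0, and the 13 genes above the line are mostly lowest in mouse 1 or mouse 2.

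Nrg1, Pdgfc, Mdk and Igf2 were lowest in mouse 2. Nrg1 in mouse 2 was 1.68 log2 units below the mean of the other mice; Pdgfc, at 102, 47 and 109, was also clearly lower there. The endocardial marker list was lowest in mouse 2 as well, with a sum of 3825 in mouse 1, 2901 in mouse 2 and 5605 in mouse 3. Its gene Npr3 had 1589, 914 and 2228 and Cdh11 had 464, 302 and 835, while Cgnl1 had 1754, 1663 and 2486, and Hapln1, at 18, 22 and 56, was not lowest in mouse 2. The atrial myosin gene Myl7, looked up after the values had been seen, had 138, 14 and 105. The endothelial list differed much less, with 20605, 20271 and 19949. The part of endocardial or atrial RNA in the values of Nrg1 and the other 3 genes was not tested.

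Igf1, Bmp2, Inhba, Inhbb, Gdf15, Rspo3, Lif and Ptn were lowest in mouse 1. The lists of fibroblasts (3254, 4210 and 4532), leukocytes (661, 937 and 900) and mural cells (2760, 3016 and 3316) were lowest in mouse 1 as well, and so were those of lymphatic endothelium (3257, 3988 and 4570) and cardiomyocytes (20679, 21339 and 24237). Their genes did not all share this order. Mouse 1 was the lowest for 7 of 10 fibroblast, 7 of 9 listed leukocyte, 6 of 10 mural, 6 of 6 lymphatic and 4 of 10 cardiomyocyte genes. The fibroblast genes Dcn (813, 579 and 1007) and Lum (458, 309 and 618) were lowest in mouse 2. Des, a gene of the mural list (1005, 798 and 816), was highest in mouse 1. It had 278.6 per kb against a list median of 47.1 and made up 1005 of the mural sum of 2760 in mouse 1. The part of other cell types in its value was not tested. The sex-linked genes Xist (4, 618 and 869) and Ddx3y (1080, 3 and 1) also set mouse 1 apart from the others. Such values are those of a male mouse 1 and of female mice 2 and 3. The part of these cell types or of the sex-linked difference in the 8 ligand genes was not tested, and with 3 animals they cannot be told apart. The values of Kitl, Pdgfb, Gas6, Csf1 and Egfl7 differed by at most 0.13 log2 units between a mouse and the mean of the others. Apart from Csf1 these are the members nearest to the ceiling that duplicate removal sets on reads per base, which can narrow the spread, and its part was not tested.

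**Figure D4:**
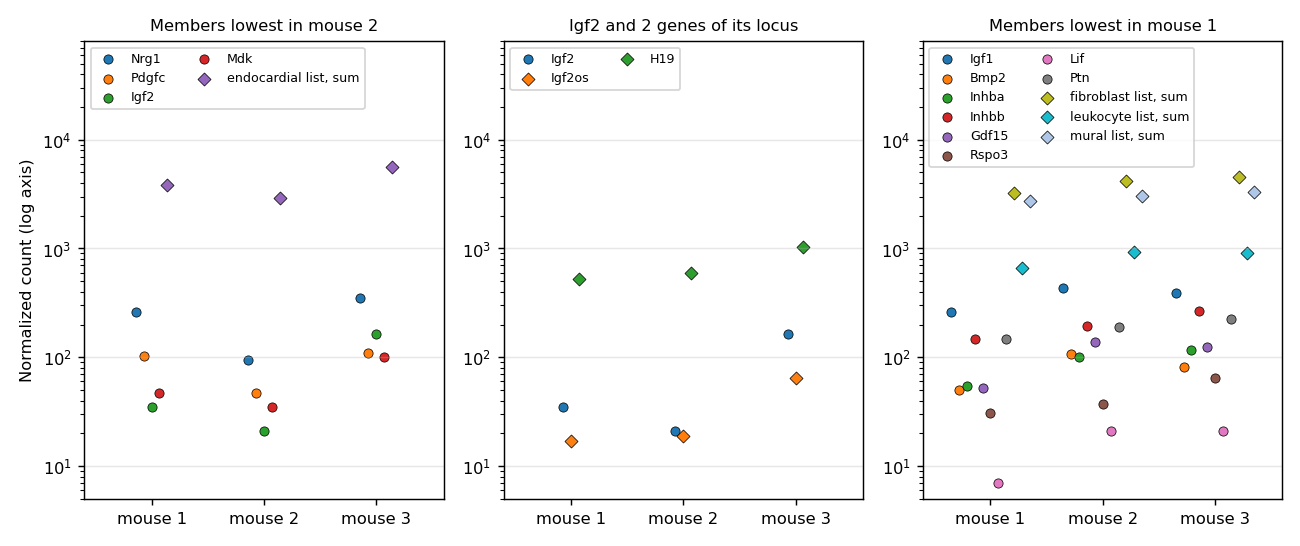
Normalized counts (log axis) per mouse of the 4 variable ligand genes that were lowest in mouse 2 with the summed endocardial list, of Igf2 with Igf2os and H19, and of the 8 variable ligand genes that were lowest in mouse 1 with the summed fibroblast, leukocyte and mural lists. Circles are ligand genes and diamonds the other genes or lists. Igf2 reaches 164 in mouse 3 against 35 and 21 in the others, and Nrg1 falls to 95 in mouse 2.

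Levels per kb depend on the transcript length assumed. Per kb of all annotated exons, 10 of the 36 genes (27.8%) were in the top 10% of all genes (background 10.0%). Pdgfb was then the highest with 480.9 per kb and rank 89, followed by Bmp6 with 473.2 and rank 93, and Kitl with 412.2 and rank 164. The removal of duplicate reads sets a further limit, because reads with a common start on a strand were kept only once. A transcript can then hold about 1 read per base, and Egfl7, Gas6, Pdgfb and Kitl, at 610.4 to 719.2 normalized counts per kb of canonical transcript, lie nearest to this ceiling among the 36 genes. Marker genes were as near or nearer, such as Myl2 at 819.2 and Pecam1 at 746.5 per kb. How far the ceiling lowered these counts was not tested.

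**Figure D5:**
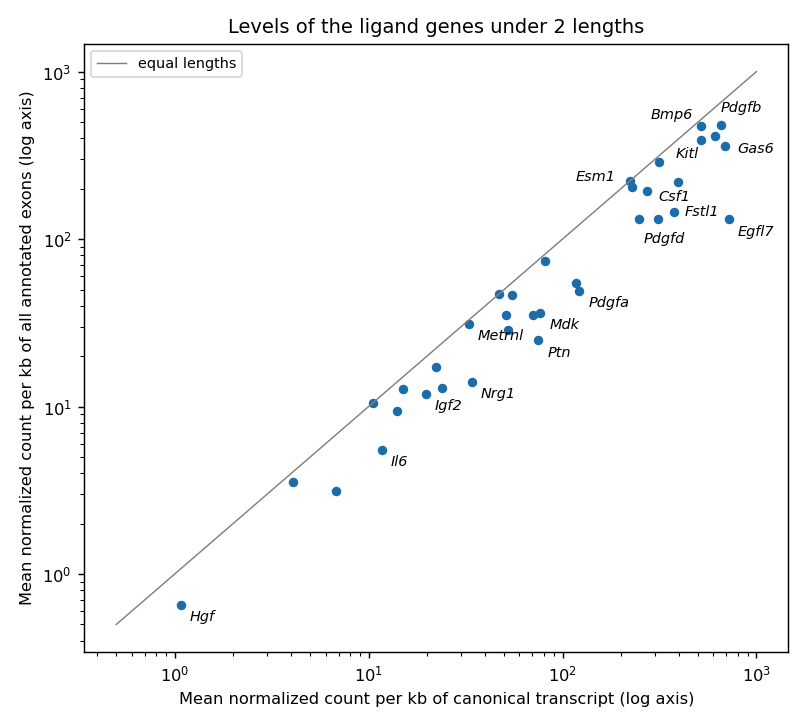
Mean normalized count of the 36 ligand genes per kb of canonical transcript (x axis) and per kb of all annotated exons (y axis), both on log axes, with a line for equal lengths. The distance below the line grows with the share of exons outside the canonical transcript, and Egfl7 falls farthest below the line, from 719.2 to 131.1 per kb.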

How the data were processed

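RNA bound to tagged ribosomes was sequenced from hearts of 3 EC-RiboTag mice as single-end reads of 72 bases. According to the methods, the authors trimmed reads with Trimmomatic 0.39, aligned them with STAR 2.7.11a to mm39, removed duplicates (Picard 3.1.1) and multi-mapping, ribosomal and mitochondrial reads, and counted strand-matched exonic reads with featureCounts 2.0.4, leaving out reads that overlap several genes. The deposited unit is a score: counts that the authors normalized with DESeq2 1.36.0 and that are rounded to whole numbers. They are not raw counts, so no count model was used. The table holds no gene whose highest value is below 4.

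The members, pairs and gene lists were chosen with earlier results of these data known. Levels are means and SDs over mice. Normalized counts were divided by the canonical transcript length in the GENCODE annotation of GRCm39, which is newer than that of the authors and holds 17475 of the 17583 genes (99.39%). Overlap with other genes was counted on the same strand against genes of the table. Log2 ratios were taken within each mouse and tested by exact permutation of their signs, two-sided, with p-values adjusted by Benjamini-Hochberg over the pairs of each kind. The rules for spread, scaling and read worth, the last fitted on whole numbers from 5 to 120, were tested on simulated data. All members were named with their values in every mouse. The same holds for the listed receptors in a pair except Lgr4 and Tnfrsf10b, for which only a ratio was given. Scaling by trimmed means (30% of log ratios and 5% of levels at each end), equal totals, other lengths, detection limits and pseudocounts, the median and leaving out each mouse were tried. Start sites for the promoter windows come from the same annotation. The sequence of another promoter window is not reported here. Python 3.11.15, pandas 2.3.3 and numpy 2.4.6 were used, and plots were drawn in matplotlib 3.10.9.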

Additional observations from a re-analysis of the deposited data

How the results depend on the processing

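The counts of ligand genes that were detected, had a mean of at least 200 or lay in the top 10% per kb, the count of detected receptors, and the numbers of ratios with 1 sign in every mouse stayed within 1.5 times of the reported counts under each alternative tried. The exception was the number of ligand genes with a CV over 20%, which rose from 3 to 5 with a mean of at least 100 (11.6% of all genes) and to 14 with no filter on the mean. Over the fits that omit 1 mouse it ranged from 2 to 3. Each member's mean moved by less than 1 SD under other scalings. Without mouse 3 the mean of Igf2 fell from 73.3 to 28 and that of Hgf from 7 to 3.5, and without mouse 1 that of Hgf was 10.5.

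Some ratios changed sign. Without division by length, the log2 ratio of Lif to Il6 was 0.17, that of Bmp6 to Bmpr2 -0.38 and that of Tnfsf12 to Tnfrsf12a 0.27. By exonic length, Ptn to Mdk was -0.41 and Tnfsf12 to Tnfrsf12a 0.34. With a mouse left out, Ptn to Mdk ranged from -0.25 to 0.40. Per unshared base of the canonical transcript, chosen after seeing the data, Igf1 to Igf2 was -3.18, Igf2 to Igf2r 1.61, Tnfsf10 to Tnfsf12 -0.78 and Tnfsf12 to Tnfrsf12a 0.78. These changes follow from the lengths, or for Ptn to Mdk without mouse 2 from the omitted library. No paired analysis was possible because all 3 libraries belong to a single group. With 3 mice, no ratio could reach significance, and members under about 20 normalized counts (Hgf, Il34, Il6, Lif and Egfl8) are limited by counting.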
